A study of Mus musculus with 6 samples.

Results

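The SLC25 family, the carriers that move metabolites across the inner membrane of mitochondria, was followed in mouse ovaries cultured with or without 3-methylcholanthrene (3MC). Members were taken by name: every row of the authors' comparison sheet whose gene symbol begins with Slc25a, together with Ucp1, Ucp2 and Ucp3. That gave 65 rows of 25697, for 43 genes of 18138. Values of single arrays exist only for rows that could be placed on a probe, and these were chosen by their ratio of 3MC to DMSO, as described below. The family itself was picked with earlier results on Slc25a3 known, so its values are a description.

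Ovaries of Swiss mice, taken at postnatal day 3 to 4, were kept in organ culture for 96 h and read on Illumina Mouse Ref-8 v2 BeadChips. The 3 samples of one group received 5 µM 3MC, a combustion-type polycyclic hydrocarbon and ligand of the aryl hydrocarbon receptor, and the 3 of the other received the vehicle, 0.01% dimethyl sulfoxide (DMSO). Media of both groups held serum, fibroblast growth factor, leukemia inhibitory factor and stem cell factor. The labels do not say how many ovaries or animals went into a sample, so every error and p-value covers only how far these samples differ, and that spread may be technical. The dose was set, per the labels, to be overtly toxic.

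Carriers of this family are nuclear-encoded proteins that the outer membrane translocase and the small TIM chaperones deliver to the inner membrane. They exchange adenine nucleotides and phosphate for ATP synthesis, pass carboxylates and amino acids between matrix and cytosol, and bring in cofactors and iron. The uncoupling proteins belong to the same family. In the ovary, mitochondria of oocytes and of steroid-making cells depend on these exchanges.

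The comparison sheet names genes but holds no array values, and the array tables hold probes without gene names. A row was linked to a probe where the log2 of its ratio and the probe's difference of group means were each other's only partner within 5e-05. Of the 65 rows, 9 (13.8%) from 8 genes were linked, against 10.3% of all rows, and the other 56 had 2 to 19 candidate probes each. Large ratios are easier to place. The smallest linked ratio was that of Slc25a42 (0.20 on the log2 scale), and the largest in size that could not be linked was that of Slc25a30 (0.27). All 9 linked probes were brighter, averaged over the 6 arrays, than the median probe and were kept for the fit.

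In all 65 rows the family was spread evenly around no difference, apart from the phosphate carrier. RNA came from whole ovaries, so fewer cells of a type and less RNA per cell cannot be told apart. The authors' deposited table gave 33 rows a ratio above 1 and 32 a ratio below, with a median log2 ratio of 0.0024 (0.0009 over all rows). Rows that were 1.2-fold or more higher numbered 3 (5.21% of all rows on the array were) and rows that much lower numbered 4 (5.3% of all rows). Per the authors' deposited table, 17 rows had an unadjusted p-value below 0.05, with 7 ratios above 1 and 10 below, where 20.2% of all rows did. Without Slc25a3 the ratios of the other 63 rows ran from 0.749 to 1.34 in the authors' deposited table. The authors' own selection of changed rows held 537 of all 25697 rows and 1 member row, the raised row of Slc25a3.

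**Figure D1:**
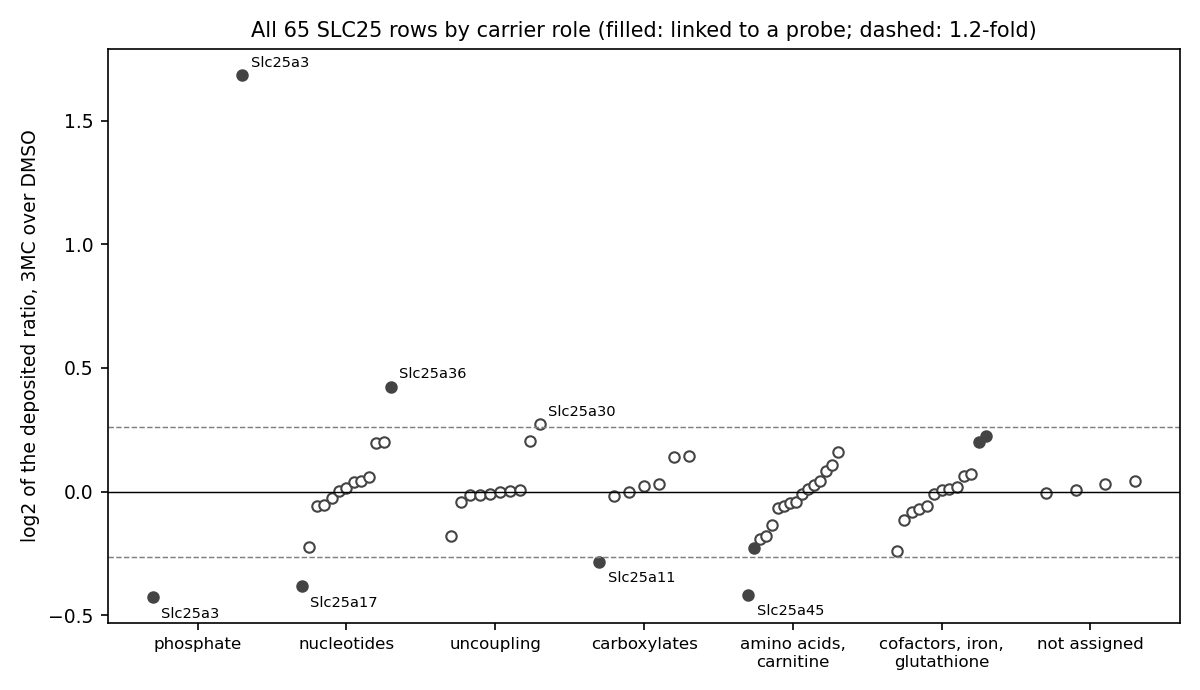
Log2 of the deposited 3MC to DMSO ratio (vertical axis) for each of the 65 rows, grouped by carrier role (horizontal axis). Filled points are the 9 rows linked to a probe, open points the other 56, and dashed lines mark 1.2-fold; 1 row of Slc25a3 lies far above all others at a ratio of 3.21.

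The linked rows went both ways: 4 rose and 5 fell in 3MC. A call here means an adjusted p under 0.05 by limma, fitted on all 12848 kept probes, of which 32.2% passed, 15.8% higher and 16.4% lower. Among kept probes linked to any row, 86.1% passed, since linking favours large ratios, so nothing can be read from the fact that all 9 passed. DMSO and 3MC arrays did not overlap in 8 of the 9 linked rows, and at 42.4% of all kept probes. Linking favours such separation too, and the share over linked probes was not counted, so nothing can be read from the 8 either. For any single row, an exact two-sided permutation test of 3 against 3 arrays cannot go below p = 0.1. The standard errors lay between 0.084 and 0.10 on the log2 scale (n = 3 per group) and come mostly from the spread pooled over probes.

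**Figure D2:**
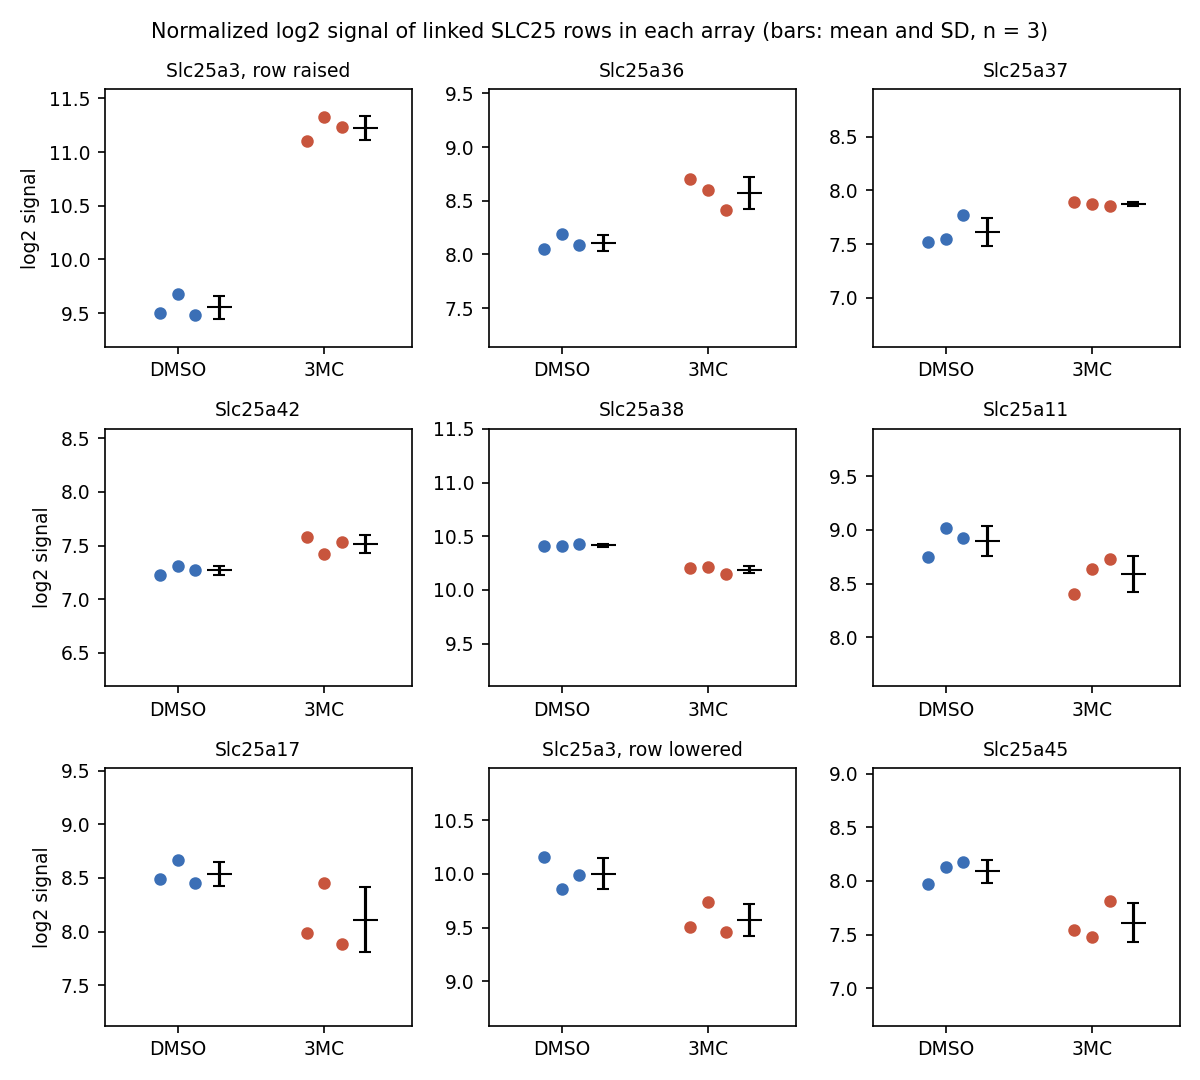
Normalized log2 signal (vertical axis, each panel spanning the same range) of the 9 linked rows in the 3 DMSO and 3 3MC arrays. Points are arrays in replicate order, bars the mean and SD (n = 3); only the groups of Slc25a17 overlap.

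Slc25a3 encodes the phosphate carrier, which brings phosphate into the matrix for ATP synthesis and also carries copper. Its 2 rows moved in opposite directions. The first row had normalized log2 signals of 9.50, 9.68 and 9.49 in DMSO replicates 1, 2 and 3, and of 11.10, 11.33 and 11.23 in 3MC replicates 1, 2 and 3. All 3MC arrays lay far above all DMSO arrays. The row rose 3.18-fold (log2 1.67 ± 0.089, SE, n = 3 per group), and it rose in each of the alternatives tried, with log2 values from 1.47 to 1.74. The second row had log2 signals of 10.15, 9.86 and 9.99 in DMSO replicates 1, 2 and 3, and of 9.51, 9.74 and 9.46 in 3MC replicates 1, 2 and 3. Here every 3MC array lay below every DMSO array, and the log2 signal fell by 0.43 ± 0.093, which is 1.35-fold lower. With median centring this fall was -0.55 and narrowly missed the threshold (limma adjusted p = 0.0538). It also missed with a plain one-way analysis of variance across all kept probes (adjusted p = 0.0950).

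Because both Slc25a3 probes were read on the same arrays, the ratio of their signals within an array does not depend on scaling between arrays. The scanner signal of the first over that of the second was 0.648, 0.878 and 0.717 in DMSO replicates 1, 2 and 3. It was 2.83, 2.94 and 3.42 in 3MC replicates 1, 2 and 3. On the normalized log2 scale the difference went from -0.45 ± 0.24 (SD, n = 3) to 1.65 ± 0.11 (SD, n = 3), a change of 2.10. Levels of different probes cannot be compared, so only the change of this ratio carries information: the probes changed unequally. Both rows carry the same Illumina transcript number and the same RefSeq transcript, in different versions. The position of each probe on that transcript was not analysed here.

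**Figure D3:**
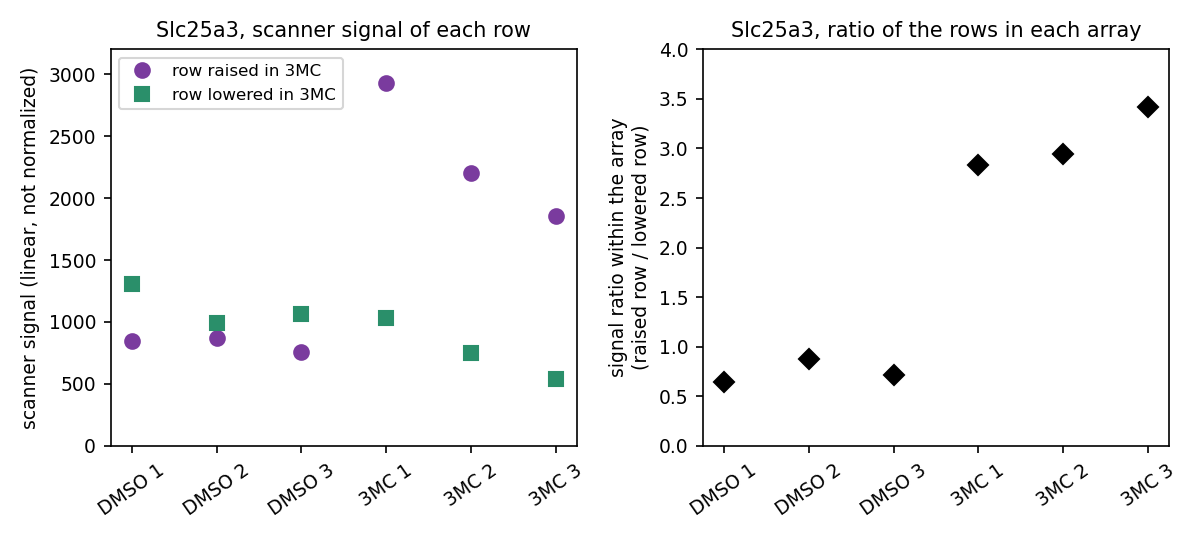
Left, scanner signal on a linear scale, not normalized, of the raised row (circles) and the lowered row (squares) of Slc25a3 in each of the 6 arrays. Right, the ratio of the raised to the lowered row within each array, from 0.648 to 0.878 in DMSO and from 2.83 to 3.42 in 3MC.

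Such a divergence was rare among the rows of this array. All rows were counted without a signal filter, dim probes included, and Slc25a3 was picked with its opposite rows known. Of 4949 symbols with more than 1 row, Slc25a3 had the widest span between its highest and lowest row in the authors' deposited table, 2.11 on the log2 scale, against a median of 0.11 over those symbols. A row 1.2-fold or more higher together with a row that much lower was present for 11 symbols (0.222%). Among the 16 carriers with more than 1 row, Slc25a3 was the only such case. The next widest span among them was that of Slc25a11 (0.28 on the log2 scale), and the median span of the 16 carriers was 0.12.

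The promoters of the linked genes are shown for the raised phosphate carrier, the next largest rise and the largest fall. 3MC acts on the aryl hydrocarbon receptor, whose complex with ARNT recognises DNA elements with the core GCGTG, read here on both strands (CACGC on the other). Each sequence runs from 250 bases before to 50 bases after the start of the gene in RefSeq (GRCm38.p6), and capitals mark each core. Slc25a3 lies at chr10:91123918-91124217 on the minus strand, Slc25a36 at chr9:97110992-97111291 on the minus strand and Slc25a45 at chr19:5877572-5877871 on the plus strand.
Slc25a3 promoter: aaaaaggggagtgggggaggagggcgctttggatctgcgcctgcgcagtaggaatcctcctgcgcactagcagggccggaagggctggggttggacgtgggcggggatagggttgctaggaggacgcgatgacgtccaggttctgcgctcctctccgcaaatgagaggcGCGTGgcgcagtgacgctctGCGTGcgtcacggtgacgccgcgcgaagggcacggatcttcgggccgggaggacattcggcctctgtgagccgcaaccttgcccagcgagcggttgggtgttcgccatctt
Slc25a36 promoter: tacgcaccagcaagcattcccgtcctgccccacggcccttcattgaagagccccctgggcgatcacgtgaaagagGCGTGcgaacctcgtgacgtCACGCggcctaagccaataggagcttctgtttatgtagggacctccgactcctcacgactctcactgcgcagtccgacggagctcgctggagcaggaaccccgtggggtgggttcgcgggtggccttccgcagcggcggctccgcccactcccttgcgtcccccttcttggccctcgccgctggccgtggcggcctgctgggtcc
Slc25a45 promoter: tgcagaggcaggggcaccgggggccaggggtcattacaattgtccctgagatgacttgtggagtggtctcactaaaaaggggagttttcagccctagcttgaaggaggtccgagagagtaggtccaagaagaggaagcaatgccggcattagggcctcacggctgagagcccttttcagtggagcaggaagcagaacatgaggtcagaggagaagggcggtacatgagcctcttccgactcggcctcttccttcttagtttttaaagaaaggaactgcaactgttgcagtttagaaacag

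The core occurred at 2 places in the Slc25a3 promoter and at 2 in that of Slc25a36, and these letters are not in this window of Slc25a45. Of the other linked genes, the windows of Slc25a11 and Slc25a42 held 1 each, and those of Slc25a17 and Slc25a38 held 0. Slc25a37 was not in the promoter table. Among all 32851 promoters 32.4% held at least 1 core, and 11.1% held 2 or more. Of 43 promoters of the 34 carrier genes in the table, 24 (55.8%) held it. The windows of Slc25a3 and Slc25a36 were 65.7% and 66.7% G and C and that of Slc25a45 52.7%, and promoters of like composition were not compared. A match describes letters only. Whether the cores bear on the change of either Slc25a3 row was not tested.

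Carriers of nucleotides were represented by 13 rows of 10 genes. Slc25a36, which carries pyrimidine nucleotides, had log2 signals of 8.05, 8.19 and 8.08 in DMSO replicates 1, 2 and 3, and of 8.71, 8.60 and 8.41 in 3MC replicates 1, 2 and 3. The groups did not overlap, and the row rose 1.38-fold (log2 0.47 ± 0.090, SE, n = 3 per group). The plain one-way analysis of variance did not call it (adjusted p = 0.0532). With each array centred on its median the difference was 0.35 and no longer passed (limma adjusted p = 0.275). When 3MC replicate 1, the brightest array, was also left out, it was 0.12 (limma adjusted p = 0.402), while leaving out that array alone gave 0.40 and kept the call. Slc25a17, a relative that resides in peroxisomes and carries coenzyme A and related nucleotides, had log2 signals of 8.489, 8.664 and 8.455 in DMSO replicates 1, 2 and 3. In 3MC replicates 1, 2 and 3 they were 7.992, 8.456 and 7.889. Replicate 2 of 3MC sat inside the DMSO range and the others below it, and the row fell by 0.42 ± 0.10 (1.34-fold lower). This call was lost with median centring (limma adjusted p = 0.0596) and with the plain one-way analysis of variance (adjusted p = 0.208).

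The adenine nucleotide translocases, which exchange matrix ATP for cytosolic ADP, had ratios from 0.982 to 1.15 in the authors' deposited table. The authors' deposited table gave 1.01 for Slc25a4, the form of heart and muscle, and 1.15 for Slc25a5, the widespread form (unadjusted p = 0.0159). Slc25a31, the form of germ cells, had ratios of 1.03 and 0.982 in the authors' deposited table. The calcium-regulated ATP-Mg/phosphate carriers had ratios in the authors' deposited table of 1.04 (Slc25a23), 1.15, 1.00 and 0.960 (3 rows of Slc25a24), 0.962 (Slc25a25) and 1.03 (Slc25a41). Slc25a33, another pyrimidine nucleotide carrier, had a ratio of 0.856 in the authors' deposited table (unadjusted p = 0.0179), opposite in direction to Slc25a36. None of these rows was linked to a probe, so whether their signal lay above background is unknown, and a ratio near 1 does not show that a gene was unchanged.

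Carriers of carboxylates had 7 rows of 4 genes, and 1 row of Slc25a11 was linked. Slc25a11 exchanges oxoglutarate for malate in the malate-aspartate shuttle. That row had log2 signals of 8.75, 9.02 and 8.92 in DMSO replicates 1, 2 and 3, and of 8.41, 8.64 and 8.73 in 3MC replicates 1, 2 and 3. The groups stood side by side without overlap, 3MC replicate 3 just below DMSO replicate 1. Its log2 signal fell by 0.305 ± 0.094, which is 1.24-fold lower. The call was lost without DMSO replicate 2 (-0.24, limma adjusted p = 0.0814) and without 3MC replicate 1 (-0.21, limma adjusted p = 0.101). The other Slc25a11 rows had ratios of 0.999 and 0.988 in the authors' deposited table. For the citrate carrier Slc25a1 the authors' deposited table held ratios of 1.11 and 1.02, for the dicarboxylate carrier Slc25a10 1.10, and for the oxodicarboxylate carrier Slc25a21 1.02.

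Amino acid and carnitine carriers had 16 rows of 10 genes. Of these rows 10 had a ratio below 1 (12738 of all 25697 rows did), with a median log2 ratio of -0.045. Both linked rows fell, beside 86.1% of linked probes that passed. Slc25a45, placed in this group although its substrate is less well established, had log2 signals of 7.97, 8.13 and 8.17 in DMSO replicates 1, 2 and 3. In 3MC replicates 1, 2 and 3 they were 7.54, 7.48 and 7.82, all below the DMSO arrays. The row fell by 0.48 ± 0.093 (1.39-fold lower). With median centring it passed (-0.59), and with a plain one-way analysis of variance across all kept probes it did not (adjusted p = 0.0770). Slc25a38, which supplies glycine for haem synthesis, went from 10.42 ± 0.013 to 10.19 ± 0.032 (SD, n = 3 each) at its linked row. It fell by 0.23 ± 0.084 (1.17-fold lower), and in the authors' deposited table its other rows also had ratios below 1, 0.911 and 0.968. With the plain one-way analysis of variance it was the only fall of a carrier to pass (adjusted p = 0.0108). In limma the Slc25a38 call was lost when any array but 3MC replicate 1 was left out, with log2 values of -0.24 to -0.21 and limma adjusted p from 0.0595 to 0.0983.

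Of the amino acid carriers that were not linked, Slc25a18, a glutamate carrier, had a ratio of 0.875 in the authors' deposited table (unadjusted p = 0.00272). The other glutamate carrier, Slc25a22, had 0.971 in the authors' deposited table. The aspartate-glutamate carriers had ratios of 0.992 (Slc25a12) and 1.06 and 1.02 (Slc25a13) in the authors' deposited table. Ratios in the authors' deposited table were 1.08 and 1.03 for the ornithine carrier Slc25a15, 0.960 for Slc25a29, which carries basic amino acids, and 1.12 for Slc25a44, which carries branched-chain amino acids. Slc25a20, which brings acylcarnitines into the matrix for fatty acid oxidation, had 1.01, 0.954 and 0.883 in the authors' deposited table.

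Among carriers of cofactors, iron and glutathione (13 rows, 9 genes), both linked rows rose by small amounts, beside 86.1% of linked probes that passed. Slc25a37, mitoferrin 1, which imports iron, had log2 signals of 7.52, 7.55 and 7.77 in DMSO replicates 1, 2 and 3, and of 7.89, 7.88 and 7.86 in 3MC replicates 1, 2 and 3. The 3MC arrays were tightly grouped just above DMSO replicate 3. The row rose by log2 0.26 ± 0.088, a call lost without DMSO replicate 1 (0.22, limma adjusted p = 0.104) and without DMSO replicate 2 (0.23, limma adjusted p = 0.0820). Slc25a42, which imports coenzyme A, went from 7.27 ± 0.040 to 7.51 ± 0.083 (SD, n = 3 each) and rose 1.18-fold (log2 0.24 ± 0.086). It lost the call without DMSO replicate 1 (0.22), DMSO replicate 3 (0.25), 3MC replicate 1 (0.21) or 3MC replicate 3 (0.24), with limma adjusted p from 0.0650 to 0.0934. With median centring and 3MC replicate 1 left out, the differences were 0.015 for Slc25a37 and 0.0030 for Slc25a42 on the log2 scale.

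The other cofactor carriers were not linked. Mitoferrin 2, Slc25a28, had 0.944 in the authors' deposited table (unadjusted p = 0.423), where mitoferrin 1 had 1.17 (unadjusted p = 0.0841). The pair of iron carriers thus had ratios on opposite sides of 1, neither with an unadjusted p below 0.05. The glutathione carrier Slc25a39 had 0.923 and its relative Slc25a40 had 1.05, 0.993 and 0.961 in the authors' deposited table. Slc25a16, linked to coenzyme A, had 1.05, the S-adenosylmethionine carrier Slc25a26 had 1.01, and the folate carrier Slc25a32 had 1.00 and 0.952 in the authors' deposited table.

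Uncoupling proteins and their relatives had 10 rows of 6 genes, none linked at the tolerance used. Ucp1, which makes heat in brown fat, had a ratio of 0.990 and Ucp3, of muscle, ratios of 0.992 and 0.989 in the authors' deposited table. Ucp2, found in many tissues and in cells of the immune system, had ratios of 1.01, 0.971 and 0.882 in the authors' deposited table, the last with an unadjusted p of 0.0382. The relatives Slc25a14 and Slc25a30 had 1.15 and 1.21 in the authors' deposited table (unadjusted p = 0.0296 and 0.0161), while Slc25a27 had 1.00 and 0.997. The 4 rows without an assigned role had ratios from 0.997 to 1.03 in the authors' deposited table, and they belong to Slc25a34, Slc25a35 and the outer membrane protein Slc25a46.

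With a narrower link tolerance of 2e-05, chosen after the data were seen, 12 rows were linked, 4 of them not among the 9. Slc25a30 then had 6.69 ± 0.059 in DMSO and 7.05 ± 0.10 in 3MC (SD, n = 3 each) and was called higher (log2 0.36 ± 0.087). Slc25a15 (0.14 ± 0.088) and Slc25a44 (0.18 ± 0.087) were not called. The row of Slc25a38 lost its link. A narrower tolerance can pass over the true partner, and 2.36% of the sorted differences between both sets of values exceeded it.

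**Figure D4:**
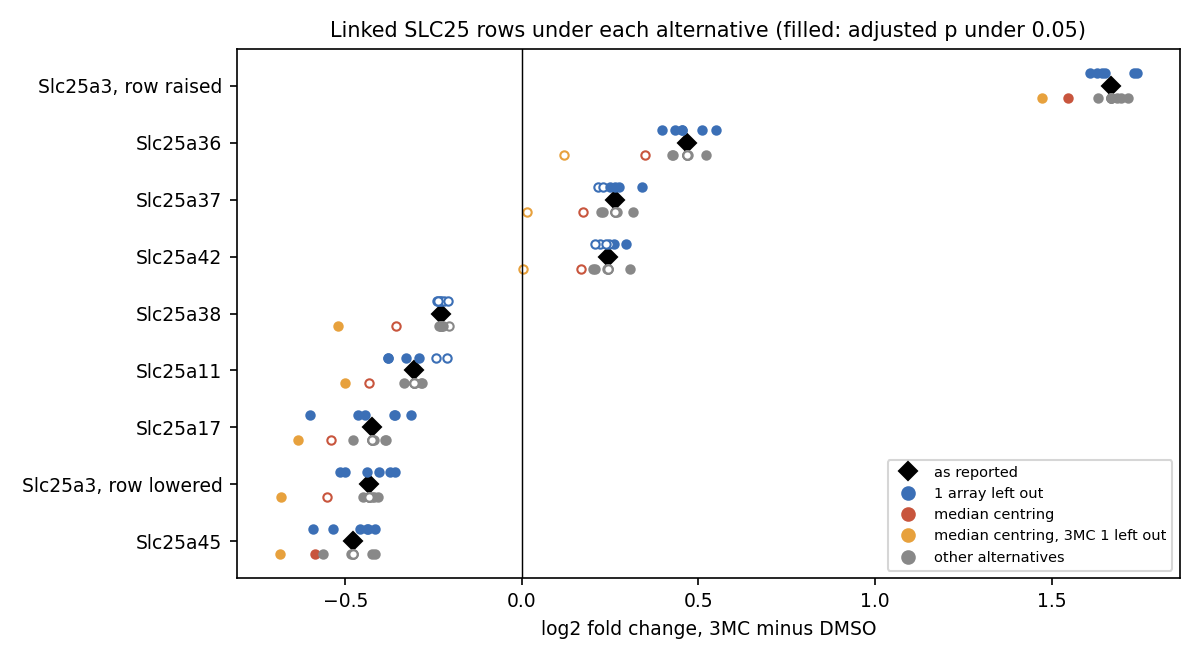
Log2 fold change of 3MC against DMSO (horizontal axis) of the 9 linked rows as reported (diamonds) and under each alternative (circles, coloured by kind), filled where adjusted p was below 0.05. Only the raised Slc25a3 row (1.47 to 1.74) stayed far from 0 and filled throughout; Slc25a36, Slc25a37 and Slc25a42 moved toward 0 with median centring.

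With each array centred on its median, 2 of the 9 linked rows passed, the raised Slc25a3 row and Slc25a45. Calls became fewer over the whole array, with 1106 of 12848 kept probes passing against 4136 as reported. The rises became smaller (0.17 for Slc25a37 and for Slc25a42), whereas falls that lost the call became larger: -0.43 for Slc25a11, -0.54 for Slc25a17 and -0.36 for Slc25a38. Over all kept probes the share of calls that were higher in 3MC went from 49.0% to 31.0% with median centring. When 3MC replicate 1 was also left out, 568 probes were higher and 5102 lower. No linked carrier row changed direction in any of the alternatives. These rows were linked by their ratio in the same arrays, so a kept direction was largely set beforehand.

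Genes that deliver carriers to the inner membrane also divided. Of 20 rows of 14 genes of the TIM22, small TIM and TOM list, 6 were linked and kept, and 3 rose and 3 fell (beside 86.1% of linked probes that passed). Timm9 and Timm10, which form the chaperone ring that escorts carriers across the intermembrane space, fell by 0.57 ± 0.089 and 0.55 ± 0.093 at their linked rows, and the other Timm9 rows had ratios of 0.764, 0.913 and 1.03 in the authors' deposited table. Fxc1 (Timm10b), the small TIM on the TIM22 translocase, fell by 0.73 ± 0.089 at 1 row, with 0.949 and 0.890 at the others in the authors' deposited table. These 3 also fell with median centring. Tomm6, a small subunit of the outer membrane translocase, rose (0.48 ± 0.087), as did the carrier receptor Tomm70a (0.32 ± 0.094) and 1 row of Timm8b (0.26 ± 0.088), but these rises did not pass with median centring (limma adjusted p = 0.159, 0.338 and 0.692). Timm8b turned to -0.03 when 3MC replicate 1 was also left out, and its other row had a ratio of 0.919 in the authors' deposited table. Tomm70a lost the call without DMSO replicate 3 (0.23, limma adjusted p = 0.104). Timm8b lost it without DMSO replicate 1 or 2 or 3MC replicate 1 or 2 (0.21 to 0.25, limma adjusted p from 0.0601 to 0.0887).

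Other transport across mitochondrial membranes gave 37 rows of 20 genes, with 5 linked, of which 3 rose and 2 fell, again beside 86.1% of linked probes that passed. The linked rows of the sideroflexins Sfxn5 and Sfxn1 and of the outer membrane channel Vdac1 rose by log2 0.38 ± 0.091, 0.26 ± 0.091 and 0.27 ± 0.088. The other Sfxn1 row had a ratio of 0.953 in the authors' deposited table. Tspo, an outer membrane protein studied in steroid-making cells, fell by 0.31 ± 0.096, and Slc24a6 (Slc8b1), the sodium-calcium exchanger, fell by 0.37 ± 0.088. None of these 5 passed with median centring of all 6 arrays, where 1106 of 12848 kept probes did. Vdac1 turned to -0.09 when 3MC replicate 1 was also left out. Leaving out 1 array ended the calls of Sfxn1 (DMSO replicate 1 or 2 or 3MC replicate 2 or 3, 0.18 to 0.27) and Vdac1 (DMSO replicate 3 or 3MC replicate 1 or 2, 0.20 to 0.26). Tspo lost its call without DMSO replicate 3 (-0.20, limma adjusted p = 0.147) and without 3MC replicate 2 (-0.26, limma adjusted p = 0.0794). Of regulators of mitochondrial gene expression (14 rows, 10 genes), both linked rows fell, again beside 86.1% of linked probes that passed. Ratios were below 1 at 11 of the 14 rows and above 1 at 3, per the authors' deposited table (12738 of all 25697 rows were below 1). Beside 20.2% of all rows, an unadjusted p below 0.05 went with 4 rows there, on both sides of 1. These were Esrra (1.26, unadjusted p = 0.00122), 1 row of Gabpb1 (1.10, unadjusted p = 0.00175), Tfb1m (0.561) and Ppargc1b (0.887). Tfb1m, which methylates mitochondrial ribosomal RNA, went from 7.13 ± 0.17 in DMSO to 5.95 ± 0.12 in 3MC (SD, n = 3 each). That 3MC level is dim, and the log2 difference was -1.18 as reported and -1.93 with a normexp offset of 16, so its size is uncertain. Tfam, which packages mitochondrial DNA, fell by 0.28 ± 0.091 at its linked row. That call was lost without DMSO replicate 2 (-0.23, limma adjusted p = 0.0987) and without 3MC replicate 3 (-0.20, limma adjusted p = 0.126). In the authors' deposited table the linked Tfam row had 0.833 (unadjusted p = 0.133) and the other 0.830 (unadjusted p = 0.0628). With median centring of all 6 arrays Tfb1m passed and Tfam did not (limma adjusted p = 0.209).

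Markers of cell types were read in the same contrast. Array sums cover linked probes only, and linking favours large ratios (86.1% of linked probes passed). Over all rows of a list, the median log2 ratio in the authors' deposited table was -0.971 for leukocyte and macrophage markers. For the other lists it ran from -0.040 (brown adipocyte) to 0.073 (granulosa). Of 28 rows of 16 leukocyte and macrophage markers, 23 were 1.2-fold or more lower in the authors' deposited table. The summed normalized signal of their 23 linked probes was 17439 to 18086 in the DMSO arrays and 5977 to 6337 in the 3MC arrays. Oocyte markers (6 linked probes of 14 rows) summed to 16456 to 17822 in DMSO and 18899 to 20349 in 3MC. Gdf9 and Zp3 were the brightest of them (log2 12.8 and 12.3 in DMSO). Oosp1, Bmp15, Zp3 and Gdf9 were called higher but Figla (-0.50) and Sohlh1 (-0.47) lower. Granulosa markers (5 of 16) summed to 7664 to 7965 in DMSO and 7038 to 7223 in 3MC. Of those 5 probes 3 are of Amhr2, 2 of them called lower, while Cyp19a1 (0.75) and Wnt4 (0.42) were called higher and 12 of the 16 rows had a ratio above 1 in the authors' deposited table. Both ovarian lists had every linked probe above the median probe. Smooth muscle markers (3 of 12) summed to 3822 to 4107 in DMSO and 4619 to 4876 in 3MC, with Acta2 and Des called higher and Myh11 lower (-0.55). That sum is mostly Acta2, at log2 11.8 in DMSO against 6.99 for Des and 7.36 for Myh11. The sums of brown adipocyte markers (2 of 8) were 509 to 545.4 in DMSO and 354 to 426 in 3MC. The 1 linked erythroid probe was dim and not kept, and no theca or endothelial marker was linked. The part of these shifts in the carrier values was not tested.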

How the data were processed

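The series holds 6 arrays, 3 with 3MC and 3 with DMSO, grouped by sample title, and their number limits the precision. The members and gene lists were chosen with earlier results of these data known. The deposited table of scanner intensity was not background subtracted, judging by its lowest values of 72.7 to 80.0, and medians ran from 98.1 to 124.5. The authors' value table was read as log2, since its columns follow log2 of the scanner signal. Among tools, lumi is listed in the submitters' processing notes. Per the file headers, the comparison sheet that the authors deposited gives a ratio of 3MC to DMSO and a p-value, with no adjustment named. Which model gave those p-values is not stated: a one-way model and a replicate block model of these arrays each came within 1% of 0.264% of them at linked rows.

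Sorted, the log2 ratios and the probe differences agree within 8.69e-05 (2.55e-06 at the median). Linking gave 2656 rows. The spread that each deposited p-value implies followed that of the linked probe across rows (Spearman 0.423) and not that of the next probe (-0.0086). Intensities were corrected by normexp with an offset of 50, then quantile normalized on the log2 scale. Probes above the median probe were kept (12848 of 25697) and tested with limma 3.58.1 in R 4.3.3 (moderated two-sided test, a group term and no other, Benjamini-Hochberg over kept probes, threshold 0.05). Alternatives covered normalization, background, filter, link, block and left-out arrays. Array values are given for linked rows with a log2 fold change of at least 0.26 in size and for every Slc25a3 row. Accessions gave all 65 rows the same symbols in RefSeq (GRCm38.p6). By accession, Slc25a47, Slc25a48 and Slc25a53 are on the array under older names that the rule leaves out. Same-numbered arrays deviated together at r = -0.079, -0.096 and 0.084, so the numbers share no more than a number. The values of 1 carrier gene are counted in the totals and not reported here.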

Additional observations from a re-analysis of the deposited data

How the results depend on the processing

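Over all kept probes, 4136 passed as reported, 1106 with median centring, 1842 with a plain one-way analysis of variance and 2512 with the filter at the upper quartile, where fewer probes were tested. Of the linked carrier rows, 4 rose and 5 fell as reported. With median centring 1 rose and 1 fell, and with the plain analysis of variance 1 rose and 1 fell. The filter at the upper quartile left 2 rises, since it removed dim probes. Median centring without 3MC replicate 1, added after the data were seen, left 1 rise, with 5 falls. A link tolerance of 0.0001 linked 6 rows, with 3 rises and 3 falls. Leaving out 1 array at a time gave 2 to 4 rises and 3 to 4 falls, and 3339 to 3607 passing probes. With the replicate block 3986 probes passed, and 4 rows rose and 5 fell. Of 141 values of single rows under the alternatives, 109 kept direction and call, 32 kept direction but lost the call, and 0 reversed. Linking by ratio in the same arrays leaves little room for reversal. Where fewer probes or arrays do not account for a lost call, the cause was not tested. Linking by the authors' p-value as a further key was not run, since neither model tried, one-way or with the replicate block, gave those p-values back. Signal over background limits the unlinked rows, whose array values are unknown.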
